A study of Mus musculus with 6 samples.

Results

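Embryoid bodies (EBs) of 2 mouse embryonic stem cell (ESC) lines were compared at day 3 of differentiation, 1 that carried H2A.Z AP3, a mutant of the histone variant H2A.Z, and 1 that carried wild-type H2A.Z. The comparison used 1 RNA-Seq library of each line, and expression was given as RPKM, reads per kilobase of transcript, scaled to library size. Of 21639 gene entries in the table, 11981 had at least 1 RPKM in either library and were kept, and each was described by its log2 ratio of AP3 to wild type after 1 RPKM was added to both values. At the edge of the filter, Zfp595 stayed out with 0.9998 RPKM in WT and 0.517 RPKM in AP3, and Spn came in with 1.0008 and 0.806 RPKM. A gene was called higher or lower where this ratio passed 1.5-fold, which is 0.58 on the log2 scale. The same gene's values in the other 4 libraries of the series, the H2A.Z KD EBs and the ESCs of all lines at day 0, were set beside the comparison.

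All lines were KH2 ESCs, named in the labels by the strain V6.5 (129SvJaexC57BL/6). The WT and AP3 lines each carried a transgene for YFP-tagged H2A.Z, which was switched on with 1 µg/ml doxycycline through a CMV promoter of the Tet system, and YFP-positive cells were sorted. Both also carried a short hairpin against the 3′ UTR of the endogenous H2A.Z transcript, and so did the H2A.Z KD line. The study's methods place the hairpins in the transgenic lines, so KD cells can hold a transgene that was not induced. AP3 holds the substitutions G92N, D97N and S98K, each of which puts the residue of canonical H2A in place of that of H2A.Z. EBs were grown on non-adherent plates without LIF, whereas the labels call the day 3 samples ES cells. There were no replicates in any condition, so no p-value was computed, and the error given below is counting error only, which does not cover differences between cultures.

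H2A.Z takes the place of H2A in a subset of nucleosomes, many of them beside transcription start sites. Its acidic patch is a cluster of acidic residues on the nucleosome surface, larger in H2A.Z than in H2A, that binds chromatin proteins and remodelling enzymes. EBs are an early step of differentiation in culture, in which naive pluripotency genes go down and epiblast and germ layer genes come up.

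The entry of H2afz, the gene of H2A.Z, stood at 258 RPKM in WT EBs, 236 RPKM in KD EBs and 394 RPKM in AP3 EBs. It was higher in AP3 than in WT EBs by 0.61 on the log2 scale. Reads from the coding part of a transgene can count toward H2afz, and this part cannot be told apart from the endogenous transcript in gene values. At day 0, H2afz stood at 279, 343 and 304 RPKM in the WT, KD and AP3 libraries, so the KD library of that day had the highest value, and H2afz does not check its label. The second H2A.Z gene, H2afv, differed by 0.05 between AP3 and WT EBs, with 63.3 and 61.1 RPKM.

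The libraries were of like depth, which was estimated from the steps of the lowest RPKM values as 22.5 M reads for WT EBs and 22.1 M reads for AP3 EBs. On a 2 kb transcript, 1 read was then worth 0.0247 and 0.0251 RPKM. A gene at 1 RPKM rested on about 41 and 40 reads, and the counting error (SD) of its log2 ratio was 0.32, against 0.14 at 5 RPKM and 0.05 at 50 RPKM. The marker genes were those of pluripotent and early epiblast cells in both libraries. Pou5f1, the central pluripotency factor, stood at 448 RPKM in WT and 456 RPKM in AP3 EBs, and Utf1 at 267 and 276 RPKM. Primed epiblast marker Otx2 stood at 22.3 and 17.5 RPKM. Endoderm regulators Gata4 (13.7 and 13.3 RPKM) and Gata6 (11.1 and 12.3 RPKM) were present in both, whereas of the streak markers T and Mixl1 stayed under 1 RPKM and Eomes stood at 1.86 and 1.72 RPKM, the trophectoderm factor Elf5 was listed at 0, and Cdx2 was at 0.237 and 0 RPKM.

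Few genes differed between the EBs of the mutant and of the wild type. Among the 11981 genes, 276 were higher in AP3 (2.3%) and 339 were lower (2.83%), 615 in all (5.13%). The median difference was -0.007 and the SD over genes was 0.317, and the log2 levels of the 2 libraries had a Pearson r of 0.985 across genes, which is a description, as genes are not replicates. The well expressed genes were the 8263 whose 2 values averaged 5 RPKM or more, and of these 141 were higher (1.71%) and 163 lower (1.97%). For 218 of the 256 higher genes with an annotated length, and for 297 of the 324 lower ones, the 95% counting interval of the plain ratio excluded 0. The same measure at day 0, over 12162 genes, gave 616 genes higher in AP3 ESCs (5.06%) and 364 lower (2.99%). The H2A.Z KD EBs against the same WT EB library gave 228 genes higher (1.91%) and 241 lower (2.02%) of 11956.

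The balance of the differences moved with the expression level. Below a mean of 5 RPKM the median difference was -0.071, with 135 genes higher and 176 lower. From 5 to 20 RPKM it was -0.025, and 80 genes were higher and 127 lower. From 20 to 100 RPKM it was 0.059, with 48 higher and 35 lower, and at 100 RPKM or more it was 0.075, with 13 higher and 1 lower of 658 genes. The housekeeping genes followed this order: 16 of 18 were above the WT value, the median was 0.173 and none passed 1.5-fold, and Gapdh stood at 1246 and 1858 RPKM (0.58). Gapdh lies on chromosome 6, where the median of the well expressed genes was 0.261 (below). Without chromosomes 6 and 8 the housekeeping median was 0.154. The part of the drift with level in single differences was not tested.

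**Figure D1:**
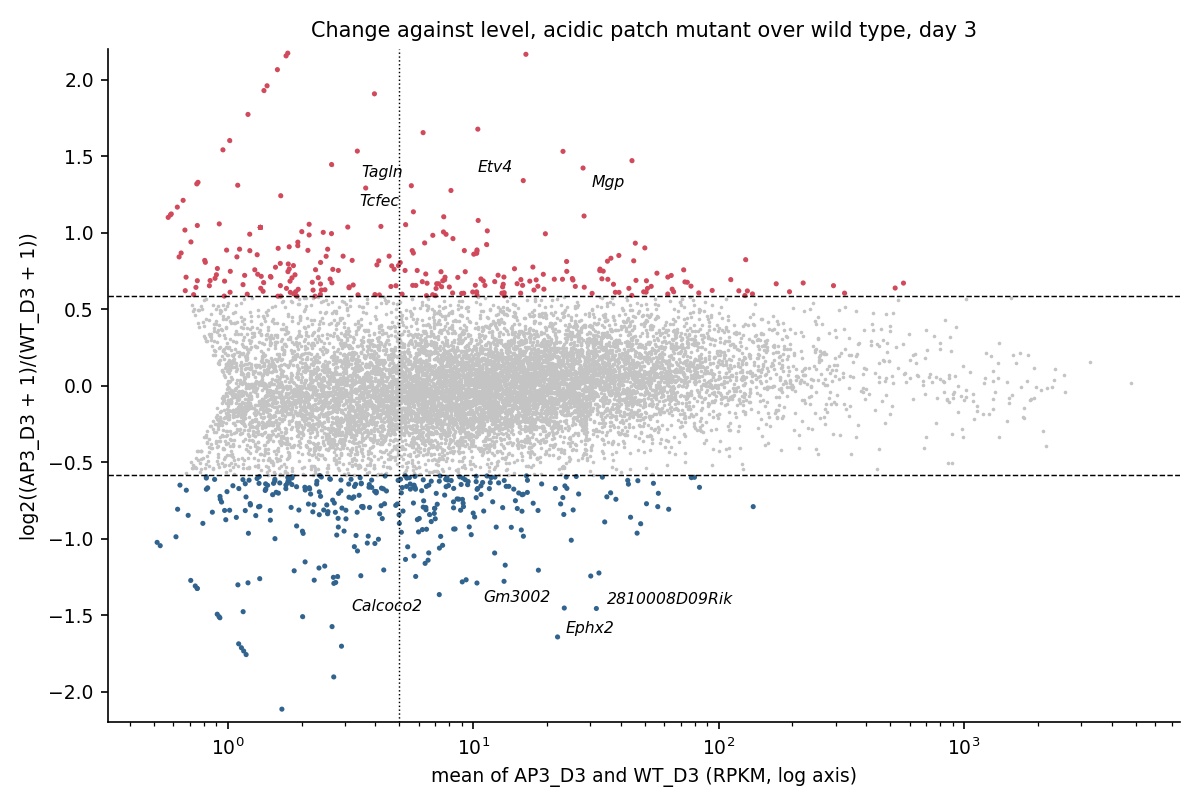
Log2 ratio of AP3 EBs to WT EBs (log2(RPKM + 1), vertical axis) against the mean RPKM of both libraries (log axis) for the 11981 genes with at least 1 RPKM. Each point is 1 gene, coloured where it passed 1.5-fold, and 9 entries lie outside the vertical range. The cloud is centred close to 0, with 276 genes above and 339 below the thresholds.

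Levels of the genes that differed most were next read in every library. These were the 15 largest increases and the 15 largest decreases among 8147 well expressed entries that have a symbol of their own and are not small RNAs. All 30 had counting intervals that excluded 0, but they were picked for large differences between the same 2 values. That outcome was thus all but set by the choice and is no support. In the H2A.Z KD line, which shares no library with the comparison, 5.53% of all tested genes were lower at day 3 than at day 0 past 1.5-fold and 8% were higher. Of the 15 increases 6 were lower on that measure and 2, Tcfec (2.47) and Slc39a8 (1.63), were higher. Of the 15 decreases 8 were higher and 1, Calcoco2 (-1.01), was lower.

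**Figure D2:**
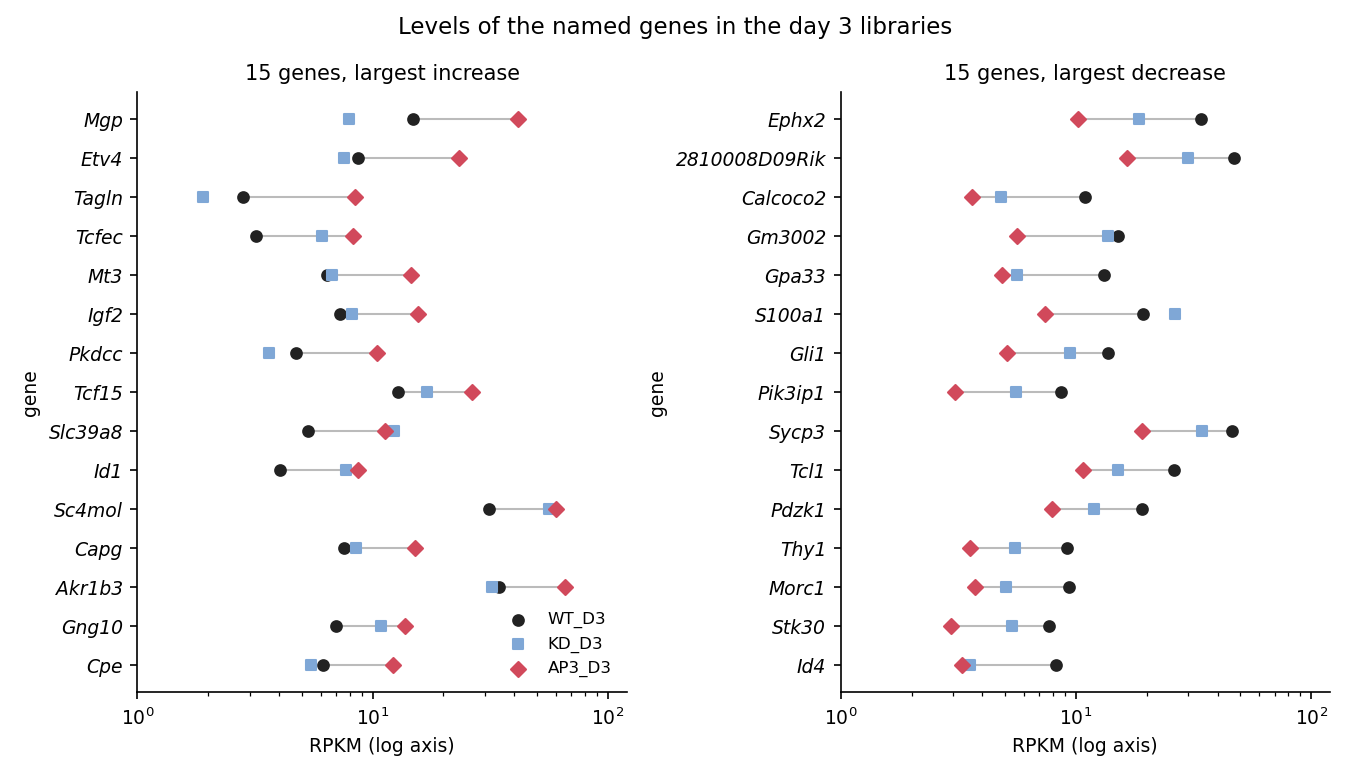
RPKM (log axis) of the 15 largest increases and 15 largest decreases in the day 3 (D3) libraries of H2A.Z WT, KD and AP3, 1 point per library and a line from WT to AP3, with no error bars as there is 1 library each. Mgp lies at 14.8 RPKM in WT and 41.3 RPKM in AP3, and Ephx2 at 33.9 and 10.2 RPKM.

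The largest increase was that of Mgp, the matrix Gla protein, a secreted inhibitor of calcification, encoded at chr6:136820956-136824326 (mm9, minus strand). It stood at 14.8 RPKM in WT, 7.93 RPKM in KD and 41.3 RPKM in AP3 EBs, a log2 difference of 1.42 between AP3 and WT. The AP3 value was above both others, and all 3 lines had higher values at day 0, between 31.9 and 46.5 RPKM. Etv4, an ETS transcription factor induced by FGF signalling and encoded at chr11:101631056-101646624, stood at 8.62 RPKM in WT, 7.53 RPKM in KD and 23.4 RPKM in AP3 EBs (1.34). Its AP3 value was also above the WT value at day 0, at 68.7 and 32.4 RPKM. Igf2, an imprinted fetal growth factor, stood at 7.23 RPKM in WT, 8.19 RPKM in KD and 15.6 RPKM in AP3 EBs (1.01), with KD close to WT. Tcf15, a bHLH factor of paraxial mesoderm that is also found in epiblast cells leaving naive pluripotency, stood at 12.8, 17.0 and 26.6 RPKM (0.99). The actin binding protein gene Tagln stood at 2.80, 1.90 and 8.41 RPKM (1.31). Its locus overlaps Pcsk7, at 2.39 RPKM in WT and 2.71 RPKM in AP3 EBs, and Rnf214, at 5.32 and 5.64 RPKM.

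Among the other increases were regulators, metal handling genes and secreted or metabolic enzymes. Id1, an inhibitor of bHLH factors and a target of BMP signalling, at chr2:152562010-152563146, stood at 4.05 RPKM in WT, 7.67 RPKM in KD and 8.64 RPKM in AP3 EBs (0.93). Tcfec, a bHLH factor of the MiT family, stood at 3.19, 6.08 and 8.23 RPKM (1.14), and the zinc transporter gene Slc39a8 at 5.29, 12.3 and 11.3 RPKM (0.96). For these 3 genes the KD value was nearer to AP3 than to WT. It was near WT, by contrast, for Mt3, a metallothionein (6.37, 6.69 and 14.6 RPKM, 1.08), for Capg, an actin capping protein (7.52, 8.51 and 15.2 RPKM, 0.92), and for Akr1b3, an aldose reductase (34.6, 32.1 and 65.5 RPKM, 0.90). Pkdcc, a secreted kinase, stood at 4.70, 3.61 and 10.4 RPKM (1.01), the G protein subunit gene Gng10 at 6.98, 10.8 and 13.8 RPKM (0.89), and Cpe, carboxypeptidase E, at 6.18, 5.47 and 12.2 RPKM (0.88). The last of the 15, Sc4mol, belongs to sterol synthesis and is given with that pathway.

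The largest decrease was that of Ephx2, soluble epoxide hydrolase, encoded at chr14:66703214-66743337 on the minus strand. It stood at 33.9 RPKM in WT, 18.5 RPKM in KD and 10.2 RPKM in AP3 EBs, a difference of -1.64. At day 0 the WT and AP3 values were alike, at 8.71 and 9.11 RPKM, so the AP3 line was near its day 0 level where the WT line was above it. An uncharacterised entry, 2810008D09Rik, stood at 47.0, 30.0 and 16.5 RPKM (-1.46). Gli1, the transcription factor at the end of hedgehog signalling, stood at 13.6, 9.42 and 5.08 RPKM (-1.27), and Thy1, a glycoprotein of the cell surface, at 9.19, 5.48 and 3.56 RPKM (-1.16). Both genes had the same order, WT above KD above AP3. S100a1, a calcium binding protein gene, was the exception, at 19.3 RPKM in WT, 26.3 RPKM in KD and 7.39 RPKM in AP3 EBs (-1.28).

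The rest of the decreases were of mixed kinds. Morc1, which is needed for spermatogenesis and for silencing of transposons, stood at 9.39, 5.05 and 3.72 RPKM in WT, KD and AP3 EBs (-1.14), and Tcl1, a coactivator of the kinase Akt and a naive pluripotency gene, at 26.1, 15.1 and 10.8 RPKM (-1.20). Calcoco2, a receptor of selective autophagy, stood at 10.9, 4.79 and 3.63 RPKM (-1.36), and Gpa33, a surface antigen, at 13.2, 5.62 and 4.85 RPKM (-1.28). Id4, of the same family as Id1 but opposite in direction, stood at 8.22, 3.55 and 3.27 RPKM (-1.11). In these last 3 the KD value was close to that of AP3. Pdzk1, a scaffold protein gene (19.1, 11.9 and 7.92 RPKM, -1.17), Pik3ip1, a brake on PI3 kinase (8.61, 5.58 and 3.05 RPKM, -1.25), and Stk30, a kinase (7.66, 5.34 and 2.95 RPKM, -1.13), had intermediate KD values. Gm3002 (15.1, 13.7 and 5.6 RPKM, -1.29) lies in a cluster of near-identical copies on chromosome 14, among which reads could be split, and its value is uncertain.

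The genes of cholesterol synthesis stood above their WT values in AP3 EBs, and 7 of them passed 1.5-fold. This pathway turns acetyl-CoA through mevalonate, isoprenoids and squalene into sterols, and its genes are switched on together by the factor SREBP2 when cells are short of sterol. Of 20 listed genes, 19 were in the table and all 19 passed the 1 RPKM filter, 7 of them were higher in AP3 (36.8%), none was lower, each of the 19 was above its WT value, and the median difference was 0.543, where all genes tested had 2.3% higher, 2.83% lower and a median of -0.007. The lists were chosen with earlier results of these data known, and these counts are a description.

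The 7 genes span the pathway. Idi1, the isomerase of isoprenoid units, stood at 27.7 RPKM in WT, 47.1 RPKM in KD and 50.8 RPKM in AP3 EBs (0.85). Sc4mol, which removes methyl groups from sterols, stood at 31.2, 56.4 and 60.4 RPKM (0.93), and Fdps, which makes farnesyl diphosphate, at 48.2, 76.4 and 80.1 RPKM (0.72). In these genes AP3 and KD EBs lay together above WT EBs. The other 4 were Mvd of the mevalonate branch (17.7, 27.1 and 30.4 RPKM, 0.75), the squalene enzymes Sqle (30.9, 45.4 and 47.7 RPKM, 0.61) and Lss (16.1, 25.9 and 26.7 RPKM, 0.70), and Dhcr7 of the last steps (14.1, 19.2 and 22.6 RPKM, 0.65). Cyp51 (18.5 and 28.2 RPKM in WT and AP3 EBs) had a difference of 0.58, just under the threshold. Ebp was alike in all 3 lines, with 0.02 between AP3 and WT.

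Added over the 19 genes, expression was 418 RPKM in WT, 611 RPKM in KD and 634 RPKM in AP3 EBs. At day 0 the sums were 848 RPKM in WT, 1085 RPKM in KD and 795 RPKM in AP3 ESCs. The sum was thus lower at day 3 than at day 0 in every line, and the AP3 line was under the WT line at day 0 and above it at day 3. At day 0 the median AP3 difference was -0.152, with none of the 19 higher and 1 lower (all genes tested, 4.06% and 2.7%). KD against WT EBs, which share the WT library with the comparison, gave a median of 0.514 and 7 genes higher, where 1.54% of all genes tested were higher.

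**Figure D3:**
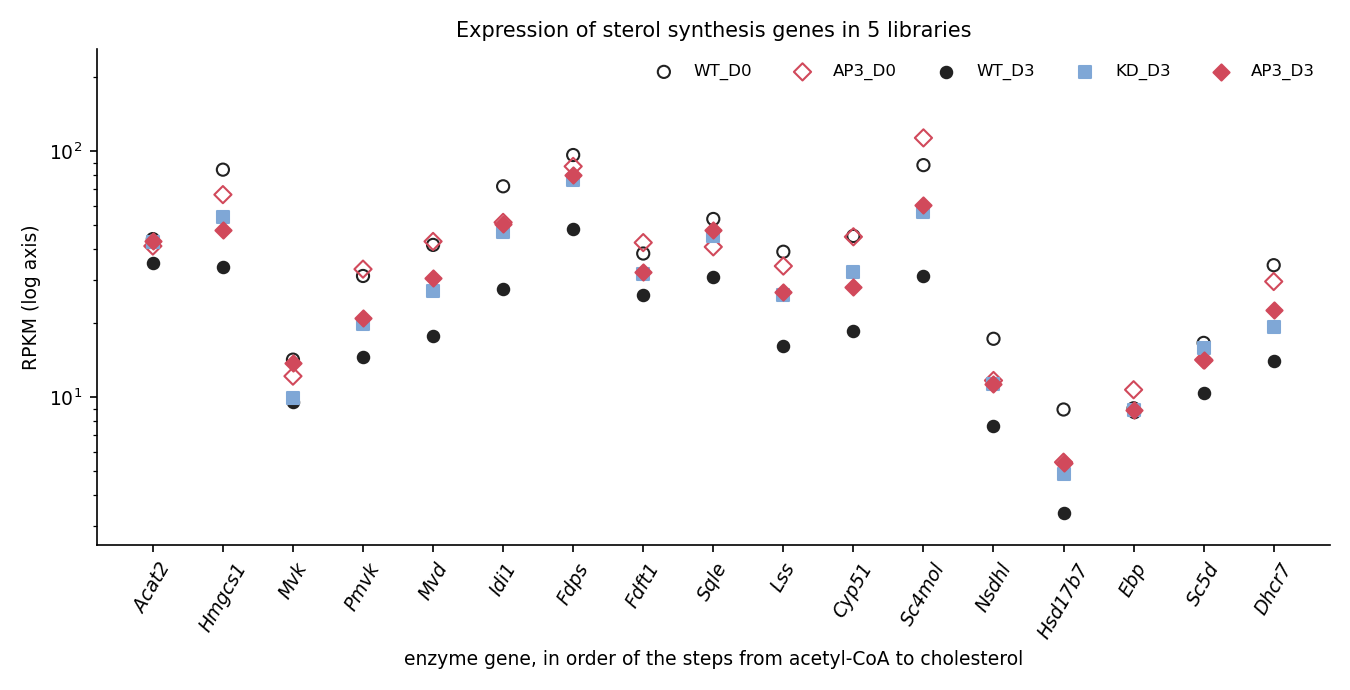
RPKM (log axis) of 17 cholesterol synthesis genes in 5 libraries, WT and AP3 at day 0 (D0, open) and WT, KD and AP3 at day 3 (D3, filled), 1 point per library with no error bars. At day 3 the AP3 points of these 17 genes lie above the WT points, with Sc4mol at 60.4 and 31.2 RPKM.

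The genes for SREBP control and cholesterol uptake did not go the same way: of 16 tested, 10 were above and 6 below their WT value, with a median of 0.077. Insig1, which holds SREBPs back when sterol is plentiful, stood at 46.2 RPKM in WT, 80.5 RPKM in KD and 60.8 RPKM in AP3 EBs (0.39). Of 15 fatty acid synthesis genes 1 was higher (6.67%, against 2.3% of all genes tested), the desaturase gene Scd1, at 11.4, 27.5 and 18.8 RPKM (0.67), and the median was 0.279. Fasn, the fatty acid synthase, stood at 36.0, 48.3 and 48.9 RPKM (0.43).

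The promoters of sterol genes are bound by SREBP2 together with NF-Y, which recognises the letters CCAAT, and short stretches are shown to place these letters in the genes that were higher. CCAAT was searched on both strands, so that ATTGG is the same motif on the opposite strand, in RefSeq promoters (GRCm38.p6) from 250 bases before to 50 bases after the start, and matches were placed on mm9. Of the 14 sterol genes with a listed promoter, 13 held the motif (92.9%), as did 43.6% of 8313 tested genes and 41.1% of all 27025. The SREBP letters TCACNCCAC were in 1 of the 14 promoters, that of Hmgcs1, and in 1.42% of tested genes. A match of letters is not a binding site. Each stretch below reads 5′ to 3′ on the strand of the gene, with the motif in capitals.
Idi1, chr13:8884799-8884819, plus strand: tccagctgATTGGcgagcccg
Lss, chr10:75994280-75994300, plus strand: atgctctgATTGGccgagctc
Mvd, chr8:124967337-124967357, minus strand: ccagcgggCCAATcatatggc
Sc4mol, chr8:67212418-67212438, minus strand: ggggcggaCCAATtacgacag
Dhcr7, chr7:151016026-151016046, plus strand: tgccttcaCCAATcacaggac

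Most listed germ line genes stood below their WT values in AP3 EBs. These encode meiotic chromosome proteins and factors that silence transposons in germ cells, and in other tissues of the embryo many of them become methylated at the promoter and silent. Of 22 listed genes, 21 were in the table, of which 5 stayed under 1 RPKM in both libraries and 16 were tested. Of the 16, 4 passed through WT EBs only, so that those 4 had to be below WT. Among the 16, 7 were lower (all genes tested, 2.83%), none was higher and the median was -0.429. Tdrd1 and Taf7l, among the 7, are of the 4 that had to be below WT. Over all 21 genes found, 18 were below their WT value and 3 above. Their summed expression was 107 RPKM in WT, 81.6 RPKM in KD and 56.8 RPKM in AP3 EBs, against 96.2, 93.9 and 82.7 RPKM at day 0. Of the day 3 sums, 46.0 RPKM in WT and 19.1 RPKM in AP3 EBs came from Sycp3. At day 0 the median AP3 difference of the 16 genes was -0.257, with none higher and 3 lower (all genes tested, 4.06% and 2.7%).

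Sycp3, a protein of the axis of meiotic chromosomes, stood at 46.0 RPKM in WT, 34.3 RPKM in KD and 19.1 RPKM in AP3 EBs (-1.22), after 14.4 RPKM in WT and 16.9 RPKM in AP3 ESCs. The WT line was thus well above its day 0 value at day 3 and the AP3 line was near its own. The entry of Sycp3 has the same locus (chr10:87922332-87966715) as Chpt1, which stood at 6.06 and 6.73 RPKM in WT and AP3 EBs. Hormad1, another axis protein, stood at 4.32, 3.21 and 1.19 RPKM (-1.29), and Tex19.1, which acts in transposon silencing, at 18.9, 10.6 and 10.8 RPKM (-0.75), with KD at the AP3 level. The piRNA pathway genes Mael (4.24, 2.62 and 1.72 RPKM, -0.95), Mov10l1 (2.76, 2.36 and 1.14 RPKM, -0.81) and Tdrd1 (1.8, 1.26 and 0.838 RPKM, -0.61) followed, and Taf7l, a germ cell TFIID subunit, stood at 1.24, 2.10 and 0.414 RPKM (-0.67). Taf7l rested on about 27 and 9 reads. Ddx4, the germ cell helicase Vasa, stood at 10.2, 11.9 and 8.58 RPKM (-0.22) and Dazl at 1.53, 1.26 and 0.806 RPKM (-0.49), both below WT and within 1.5-fold.

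Many promoters of such genes hold the E-box CACGTG, which reads the same on both strands and is known from germ line genes that are silenced in the embryo, and the stretches around it are shown for 5 of the genes that were lower. Of 14 genes of the list with a promoter 9 held it (64.3%), 6 of them among the 7 lower genes (that of Mov10l1 lies at the edge of the window and is not shown), as did 12.4% of the tested genes and 8.09% of all genes. Sycp3 and Hormad1 held it at 2 positions, of which the one nearer the start is 43 and 20 bases upstream. The letters GCGGGAA, searched on both strands, were in 3 of the 14 promoters and in 10.5% of tested genes. The stretches are written as above, with CACGTG in capitals.
Sycp3, chr10:87922281-87922302, plus strand: gcatggagCACGTGctaggagg
Hormad1, chr3:95363571-95363592, plus strand: gcactgcgCACGTGctgaccgg
Mael, chr1:168169085-168169106, minus strand: aggcctacCACGTGacaatccc
Taf7l, chrX:131011065-131011086, minus strand: tcttatacCACGTGacagaact
Tdrd1, chr19:56900680-56900701, plus strand: gctgcgcgCACGTGggagtaaa

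A minority of the FGF and ERK response genes were higher in AP3 EBs. Of 21 listed genes 20 were tested, 1 of them through AP3 EBs only, and 6 were higher (30%, against 2.3% of all genes tested), none lower, with a median of 0.259. Beside Etv4 they were Myc, the growth regulator, at 1.70 RPKM in WT, 2.25 RPKM in KD and 5.61 RPKM in AP3 EBs (1.29), and Egr1, an immediate early gene, at 5.27, 4.29 and 9.52 RPKM (0.75). Spry4, a feedback inhibitor, stood at 14.3, 14.7 and 24.3 RPKM (0.73), Etv1 at 4.78, 2.84 and 8.20 RPKM (0.67) and Fosl1 at 0.272, 0.252 and 1.08 RPKM (0.71, about 9 and 36 reads). In these 5 genes KD EBs did not share the AP3 level. Other targets of the same signal were close between the lines: Etv5 stood at 91.7 and 96.9 RPKM in WT and AP3 EBs (0.08), Dusp6 at 27.8 and 33.8 RPKM (0.27) and Spry2 at 59.3 and 66.1 RPKM (0.16). Fos, at 1.99 and 1.15 RPKM (-0.47), went the other way on about 28 and 16 reads. In WT cells Egr1 went from 146 RPKM at day 0 to 5.27 RPKM at day 3. KD against WT EBs gave a median of -0.161, with none higher and 1, Etv1 (-0.59), lower (all genes tested, 1.54% and 2.01%). Of 13 FGF ligands and receptors none was higher and 1 was lower (all genes tested, 2.83%), Fgf17 (-0.75).

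Target genes of SRF and YAP showed 5 higher (all genes tested, 2.3%) and none lower among 17 tested of 20, with a median of 0.315. Of the 17, 3 passed the filter through AP3 EBs only, so that they had to be above WT. Cnn1 and Thbs1, among the 5, are of these 3. Over all 20 genes 10 were above and 10 below their WT value, so the list as a whole was even. The 5 were Tagln, Vim, the intermediate filament protein of mesenchymal cells (17.2, 14.5 and 30.9 RPKM in WT, KD and AP3 EBs, 0.81), Acta1, a muscle actin (10.7, 12.7 and 18.8 RPKM, 0.77), Cnn1, a smooth muscle calponin (0.306, 0.763 and 1.31 RPKM, 0.82), and Thbs1, a secreted matrix protein (0.889, 1.02 and 1.90 RPKM, 0.62). Fibroblast markers were mixed. Col1a1 stood at 1.54 and 2.57 RPKM in WT and AP3 EBs (0.49) and Col1a2 at 1.3 and 2.36 RPKM (0.55), whereas Thy1, given above and also a fibroblast marker, was lower (-1.16). Of the 19 fibroblast genes found, 12 were above and 6 below their WT value, and 2 were at 0 in WT and 1 in AP3 EBs. Their sum was 120 RPKM in WT and 102 RPKM in AP3 EBs, most of it from Fn1, fibronectin (93.1 and 77.8 RPKM), and the part of fibroblasts in these differences was not tested. In bulk samples fewer cells of a type and less RNA per cell cannot be told apart.

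Several endothelial genes of low level were higher in AP3 EBs, where few reads stand behind each value. Of 17 listed genes 7 stayed under 1 RPKM in both libraries and 10 were tested. Of the 10, 4 passed through AP3 EBs only, so that those had to be above WT. Among all 17 genes, 15 were above their WT value, and the sum was 26.7 RPKM in WT, 21.5 RPKM in KD and 35.2 RPKM in AP3 EBs. Of the 10 tested 6 were higher (all genes tested, 2.3%), with a median of 0.756. The 4 that passed through AP3 EBs only, Kdr, Cdh5, Sox18 and Etv2, are all among the 6, beside Cd34 and Esam. Both the count and the median thus lean on the filter. Kdr, the VEGF receptor of blood vessel progenitors, stood at 0.142 RPKM in WT, 0.236 RPKM in KD and 1.36 RPKM in AP3 EBs, about 13 and 125 reads in WT and AP3. Cdh5, the endothelial cadherin, stood at 0.248, 0.366 and 1.6 RPKM, and Sox18, an endothelial transcription factor, at 0.206, 0.20 and 1.99 RPKM. The plain log2 ratio of Kdr had a 95% counting interval of 2.41 to 4.01, that of Cdh5 2.01 to 3.31 and that of Sox18 2.06 to 4.30. Etv2, the factor that founds the lineage, stood at 0.568, 0.548 and 1.89 RPKM (0.88), Cd34 at 1.11, 0.662 and 3.18 RPKM (0.99) and Esam at 1.74, 2.41 and 3.24 RPKM (0.63). Fli1 (0.102, 0.0532 and 0.939 RPKM), Tie1 (0.334, 0.161 and 0.968 RPKM) and Tal1 (0.0655, 0.121 and 0.600 RPKM) were under 1 RPKM in both libraries and outside the test. Pecam1, which ESCs also express, was lower in AP3 EBs at 14.2, 9.92 and 10.1 RPKM (-0.45), under the threshold.

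Regulators of pluripotency showed small differences apart from a few naive genes. None of 18 naive genes was higher, 3 were lower (all genes tested, 2.83%) and the median was -0.246. The 3 were Tcl1, Klf2 (63.0 RPKM in WT, 48.3 RPKM in KD and 33.3 RPKM in AP3 EBs, -0.90) and Tcfcp2l1 (18.2, 16 and 11 RPKM, -0.68). At day 0 Klf2 was also lower in AP3 cells, at 123 and 41.1 RPKM, whereas Tcfcp2l1 was higher, at 42.8 and 68.3 RPKM. Esrrb stood at 65.5 and 51.4 RPKM in WT and AP3 EBs (-0.35), Klf4 at 17.4 and 14.9 RPKM (-0.22), and Zfp42 at 141 and 169 RPKM (0.26). Of 15 core pluripotency genes 1 was higher (all genes tested, 2.3%), Gdf3, a TGF-beta family ligand (39.9 and 61.5 RPKM, 0.61). The core factor Sox2 stood at 186 and 160 RPKM (-0.21).

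Genes of the primed epiblast did not move one way. Of 16 tested 2 were higher and 1 was lower (all genes tested, 2.3% and 2.83%), with a median of 0.143. Beside Tcf15 the higher gene was Lef1, a factor of Wnt signalling, at 1.3 RPKM in WT, 3.45 RPKM in KD and 3.61 RPKM in AP3 EBs (1.00). Krt18, an epithelial keratin, was lower at 64.4, 68.4 and 37.3 RPKM (-0.77). The DNA methyltransferase Dnmt3b stood at 71.2, 96.0 and 105 RPKM (0.55) and Dnmt3a at 27.2, 26.4 and 39.3 RPKM (0.52), both under the threshold, while Fgf5 (7.34 and 5.51 RPKM in WT and AP3 EBs, -0.36) was on the other side of WT. Lefty1, an inhibitor of Nodal, stood at 95.1, 75.1 and 147 RPKM (0.62), after 47.8 RPKM in WT and 10.9 RPKM in AP3 ESCs, and Nodal itself differed by -0.04.

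Genes of the BMP pathway, with its ligands, receptors, Smads, antagonists and Id targets, were divided. Of 16 tested genes 3 were higher, 1 was lower (all genes tested, 2.3% and 2.83%) and the median was 0.094. Id3 stood at 3.75 RPKM in WT, 3.12 RPKM in KD and 7.67 RPKM in AP3 EBs (0.87), next to Id1, and the BMP antagonist Grem1 at 1.51, 1.66 and 3.52 RPKM (0.85). Id2 (3.74 and 4.28 RPKM in WT and AP3 EBs, 0.16) and the ligand Bmp4 (2.47 and 2.95 RPKM, 0.19) did not pass. Id4, as given above, was lower.

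Smaller groups were found on either side. Of 14 tested genes of MHC class I presentation 3 were lower (all genes tested, 2.83%), none was higher and the median was -0.197. B2m, the light chain of class I molecules, stood at 43.9 RPKM in WT, 40.9 RPKM in KD and 26.2 RPKM in AP3 EBs (-0.73), but its entry shares a locus with Patl2, which was itself lower (10.2 and 4.37 RPKM in WT and AP3 EBs), and reads of the pair may not be fully separated. The immunoproteasome subunit Psmb8 (1.73 and 0.649 RPKM, -0.73), which passed the filter through WT EBs only and so had to be below WT, and H2-Q2 (2.41 and 1.25 RPKM, -0.60), one of several near-identical class I genes, were the others. Of 30 cell cycle genes 3 were higher (all genes tested, 2.3%), Myc, Ccne1 (32.4, 43.9 and 57.8 RPKM, 0.82) and Ccne2 (3.54, 4 and 6.15 RPKM, 0.65). Ccne2 rested on about 27 and 46 reads, and its entry shares a locus with Ints8 (21.2 and 23.8 RPKM in WT and AP3 EBs). Against the same 2.3%, 3 of 22 imprinted genes were higher, Igf2, Nnat (9.29, 7.71 and 16 RPKM, 0.72) and Peg10 (21.9, 29.1 and 34.8 RPKM, 0.64). No gene passed in either direction among 22 tested p53 targets, 27 Polycomb genes, 15 Notch genes, 12 retinoic acid genes and 15 genes of DNA methylation. Of all genes tested 5.13% did.

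Some endoderm genes had their highest day 3 value in KD EBs. Dab2, an adaptor of endocytosis in primitive endoderm, stood at 41.8 RPKM in WT, 129 RPKM in KD and 70.3 RPKM in AP3 EBs, and Sox7, an endoderm factor, at 2.83, 6.27 and 4.56 RPKM. Dab2 passed the threshold in AP3 (0.74) and Sox7 did not (0.54). Of 11 tested endoderm regulators 2 were higher (all genes tested, 2.3%), Dab2 and Sox18, which is also on the endothelial list and passed the filter through AP3 EBs only, so that it had to be above WT. Basement membrane genes, made in quantity by this cell type, held no call among 18 tested (all genes tested, 5.13% in either direction). Their median was -0.150, with 16 of the 18 below WT. Their summed levels were 1110 RPKM in WT, 1637 RPKM in KD and 995 RPKM in AP3 EBs.

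**Figure D4:**
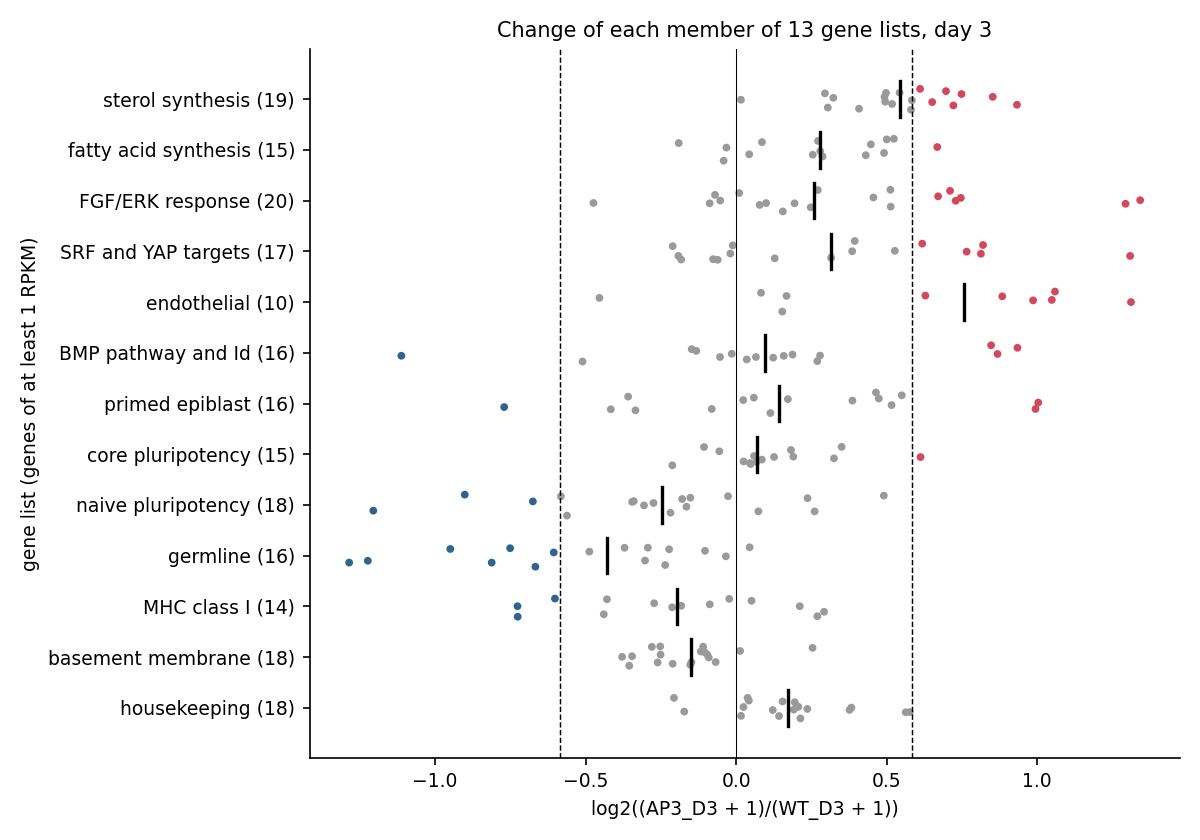
Log2 differences (log2(RPKM + 1), AP3 EBs minus WT EBs) of the tested members of 13 gene lists, 1 point per gene, with the list medians as bars, the 1.5-fold thresholds as dashed lines and the number of tested genes in brackets. All 19 sterol synthesis genes lie above 0 with a median of 0.543, and 15 of the 16 tested germ line genes lie below 0 with a median of -0.429. Of these 16 genes, 4 passed the filter through WT EBs only and had to lie below 0.

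The differences were also uneven over the genome. On chromosome 6, 47 of 548 tested genes were higher (8.58%) and 1 was lower (0.182%), and the median of its 362 well expressed genes was 0.261, with 85.6% of them above 0. Chromosome 8 had 22 of 667 genes higher (3.3%) and 10 lower (1.5%), and 74.0% of its 496 well expressed genes were above 0, with a median of 0.159. On the other 18 chromosomes the medians lay between -0.033 and 0.03 and the share of higher genes between 1.15% and 3.17%. The shift ran along the whole of both: in stretches of 15 Mb the medians were 0.207 to 0.345 on chromosome 6 and 0.087 to 0.286 on chromosome 8. In AP3 against WT ESCs the medians of the well expressed genes were 0.143 on chromosome 6 and 0.057 on chromosome 8, where the other chromosomes lay between -0.041 and 0.036. In KD against WT EBs they were -0.082 and 0.040, where the other chromosomes lay between -0.095 and 0.025. In KD against WT ESCs they were -0.138 and 0.005, where the others lay between -0.050 and 0.016.

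**Figure D5:**
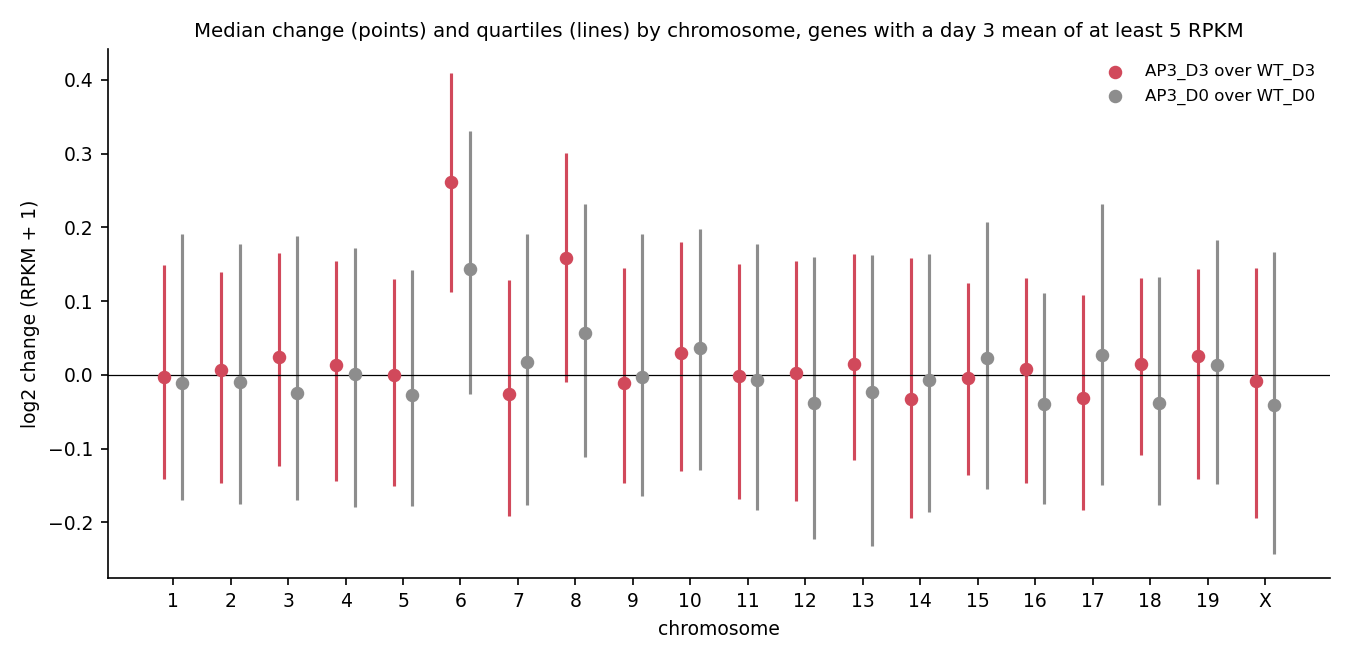
Median log2 difference of well expressed genes on each chromosome for AP3 against WT EBs (D3) and AP3 against WT ESCs (D0), with lines from the lower to the upper quartile over genes. Chromosomes 6 (0.261) and 8 (0.159) lie above the others in AP3 EBs.

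These 2 chromosomes held 69 of the 276 higher genes (25%), where 10.1% of the tested genes lie on them, and 31 of the 69 also passed 1.5-fold relative to the median of their chromosome. Of the 15 largest increases 4 lie on chromosome 6 (Mgp, Tcfec, Capg and Akr1b3) and 3 on chromosome 8 (Mt3, Sc4mol and Cpe), and all 15 passed 1.5-fold relative to their chromosome, a measure on which 2.21% of tested genes were higher and 2.63% lower, where Mgp was at 1.20, Akr1b3 at 0.68 and Sc4mol at 0.81. Gdf3 (0.39) and Peg10 (0.42), both on chromosome 6, did not pass on that measure. Among the genes called lower, H2-Q2 on chromosome 17 (-0.54) did not pass on it either. Among sterol synthesis genes 2 lie on chromosome 8, and relative to the chromosome 9 of the 19 were higher with a median of 0.577. The part of these chromosome-wide shifts in the differences of single genes was not tested.

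The genes that differed were compared with libraries that took no part in the comparison. In H2A.Z KD cells from day 0 to day 3, 662 of the 11981 genes were lower at day 3 (5.53%) and 958 were higher (8%). Of the 276 genes higher in AP3 EBs 103 were lower at day 3 in KD cells (37.3%) and 15 were higher (5.43%). Of the 339 genes lower in AP3 EBs 97 were higher at day 3 in KD cells (28.6%) and 37 were lower (10.9%). At day 0 the comparison of AP3 with WT ESCs, over the same 11981 genes, had 486 higher (4.06%) and 323 lower (2.70%). Of the 276 genes, 27 were higher (9.78%) and 28 lower (10.1%) in AP3 ESCs, and of the 339 genes 26 were higher (7.67%) and 57 lower (16.8%). Across the well expressed genes the day 3 and day 0 differences had a Pearson r of -0.003 and a Spearman rho of 0.024, given as a description over genes.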

How the data were processed

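RNA-Seq was read from 1 table with 1 library for each of 6 conditions, of which the AP3 and WT libraries at day 3 (D3) form the comparison. The authors deposited RPKM per gene, made from poly(A) RNA with reads aligned to mm9. The labels name TopHat 1.14, Bowtie 0.12.7, Cufflinks 1.3.0 and Cuffdiff. The log2 columns of the deposited table hold the authors' own comparisons and were not used. The table gives 21639 entries with 21376 symbols. Of these entries 420 share a symbol and 25 have a symbol turned into a date, and starts were raised by 1.

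Log2((RPKM + 1)/(RPKM + 1)) was computed for entries with at least 1 RPKM in either library, and 1.5-fold was the threshold. With 1 library per condition no test was run. Depth was estimated from the steps of low RPKM values on 3616 genes with 1 annotated transcript, and gave 17.8 to 32.4 M reads over the 6 libraries. Counting intervals (95%, for a ratio of 2 Poisson counts without the added 1) are rough, as they rest on annotated lengths, and PCR copies of a molecule are counted as separate reads. Genes were named as the 15 largest increases and decreases of well expressed entries, as members of 44 lists (948 symbols, 931 found, 10 of them by an older symbol) and as markers. The members, lists and tests were chosen with earlier results of these data known. Values of some list members are not reported here. Overlapping loci were read from the table. Of the 30 genes with the largest differences, 5 (Gli1, Igf2, Pdzk1, Sycp3 and Tagln) have an overlapping entry, and whether reads were counted by strand is not given in the sources used here. The scripts were tested on simulated data. Alternatives were other pseudocounts, filters, scalings, thresholds and handling of shared symbols, small RNA entries and chromosomes. Tools were matplotlib 3.10.9, scipy 1.17.1, pandas 2.3.3 and numpy 2.4.6, run in Python 3.11.15.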

Additional observations from a re-analysis of the deposited data

Results flagged for a closer look

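Of the 30 genes with the largest differences, 4 passed 1.5-fold in opposite directions at day 3 and at day 0, which share no library, and 11 passed in the same direction on both days (6 increases and 5 decreases). Over all genes tested at day 3, 4.06% were higher and 2.7% lower in AP3 ESCs. With 1 library per condition the difference between the days was not tested. Tagln was higher in AP3 EBs (1.31 on the log2 scale, from 2.80 to 8.41 RPKM) and lower in AP3 ESCs (-1.38, from 16.4 to 5.70 RPKM). Igf2 was also higher in AP3 EBs (1.01, from 7.23 to 15.6 RPKM) and lower in AP3 ESCs (-1.18, from 17.8 to 7.28 RPKM). In both genes the KD value at day 0 was on the AP3 side, with 6.74 RPKM for Tagln and 8.46 RPKM for Igf2. Conversely, 2810008D09Rik was lower in AP3 EBs (-1.46, from 47.0 to 16.5 RPKM) and higher in AP3 ESCs (0.63, from 7.07 to 11.5 RPKM). S100a1 was lower in AP3 EBs (-1.28, from 19.3 to 7.39 RPKM) and higher in AP3 ESCs (0.62, from 3.95 to 6.62 RPKM). No single library could be checked as an outlier within its group.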

How the results depend on the processing

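No paired analysis was possible because each condition has 1 library and the labels give no replicate numbers. The counts of 276 higher and 339 lower genes became 471 and 654 with a pseudocount of 0.1, 503 and 716 with 0.001, 155 and 187 with at least 5 RPKM in either library, and 61 and 64 with a 2-fold threshold. They stayed within 1.5 times under the other settings run: no filter, centring, upper quartile scaling, summed symbols, small RNA entries left out and, chosen after seeing the data, values relative to the chromosome (265 and 315) and chromosomes 6 and 8 left out. The endothelial median of 0.756 became 1.148 and 1.205 with the pseudocounts of 0.1 and 0.001, 0.560 with no filter, 0.628 without chromosomes 6 and 8 and -0.454 at 5 RPKM, where 1 gene is left. The germ line median of -0.429 became -0.689, -0.725 and, over 3 genes at 5 RPKM, -0.751. The SRF and YAP median of 0.315 became 0.058 with no filter and -0.011 over 13 genes at 5 RPKM, and the FGF and ERK median of 0.259 became 0.364 without chromosomes 6 and 8. None of the 30 genes with the largest differences changed sign, and 8 of the increases did not reach 2-fold. With 1 library per condition, differences between cultures cannot be separated from those between lines, and under 5 RPKM counting error alone is large.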

Other observations

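The genes in this section were chosen after their values were seen, and the differences are given as values. Some germ line genes outside the list had these values. Rnf17, a Tudor domain gene of male germ cells, stood at 17.0 RPKM in WT, 11.2 RPKM in KD and 7.45 RPKM in AP3 EBs (-1.09 on the log2 scale), Dmrt1, a regulator of germ cells, at 21.6, 16.7 and 10.4 RPKM (-0.98), and Ybx2, a binding protein of germ cell mRNA, at 19.2, 13.6 and 11.5 RPKM (-0.70). Kit, the receptor of germ cell and blood progenitors, stood at 10.5, 10.3 and 6.20 RPKM (-0.67). Alpl, the alkaline phosphatase of ESCs and germ cells, stood at 61.9, 42.9 and 31.3 RPKM (-0.96).

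Values of some genes that respond to metals and oxidative stress follow. Mt1 was at 437 RPKM in WT, 533 RPKM in KD and 696 RPKM in AP3 EBs (0.67), Mt2 at 197, 220 and 287 RPKM (0.54), and Hmox1, haem oxygenase, at 24.1, 25.2 and 41.6 RPKM (0.76). These 3 genes and Mt3 lie on chromosome 8, and relative to the chromosome median the differences of Mt1, Mt2, Hmox1 and Mt3 were 0.55, 0.42, 0.64 and 0.96, so that Mt1 and Mt2 were within 1.5-fold. Fth1, the ferritin heavy chain on chromosome 19, stood at 410, 469 and 638 RPKM (0.64). At day 0 Mt1 and Mt2 went the other way, with -0.52 and -0.33.

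Near-identical entries on chromosome 14 were lower with Gm3002: Gm2897 stood at 9.18 RPKM in WT and 4.71 RPKM in AP3 EBs (-0.83), Gm10406 at 9.13 and 4.82 RPKM (-0.80) and Gm3696 at 7.34 and 4.26 RPKM (-0.67). How reads were divided among the copies is not given in the sources used here. Of 146 tested small RNA entries, 54 were higher and 30 lower, where 2.3% and 2.83% of all genes tested were, and they come from a poly(A) selected library.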
